A study of Homo sapiens with 4 samples.

Results

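The 10 genes described here, MTF1, NFE2L2, NFE2L1, KEAP1, BACH1, MAFG, HSF1, HSF2, ATF4 and HIF1A, encode transcription factors, and the adaptor of one, that respond to metal, oxidative, heat, amino acid and oxygen stress, and were taken by name from the 61541 genes of the count table. RNA sequencing had been performed on MDA-MB-231, an established mesenchymal line from a human breast tumour, in 2 groups. Cadmium-resistant cells (cadmium 1 and cadmium 2) had been selected by serial passage in cadmium sulfate that was raised to 10 µM and were kept at that dose. Control cells (control 2 and control 3, by the numbers in the count table) were untreated by their labels, and how long they had been passaged is not given in the sources used here. Both groups are populations of 1 cell line. The labels call the control libraries biological replicates and the cadmium libraries replicates, and nothing states that either pair came from separately passaged lines, so p-values here measure the spread between these libraries.

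Several of these factors are best known for control of their protein. MTF-1, the product of MTF1, gains DNA binding when zinc occupies its zinc fingers, which cadmium can bring about by displacing zinc from metallothioneins. NRF2, the product of NFE2L2, is held by the adaptor KEAP1 and passed to the proteasome until oxidants or metals modify KEAP1 cysteines, after which it pairs with small MAF proteins such as MAFG and competes with the repressor BACH1 for antioxidant response elements. HSF1 is kept inactive by chaperones, ATF4 is translated when translation initiation slows, and HIF-1α is degraded while oxygen is present. The amount of transcript, the quantity measured here, is 1 layer of these pathways.

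None of the 10 genes passed the test of cadmium-resistant against control cells. At an adjusted p-value below 0.1, DESeq2 called 0 of the 10, and it called 1.13% of the 19834 genes it tested. All 10 passed its filter on mean count. At an unadjusted p-value below 0.05 DESeq2 and the quasi-likelihood test of edgeR each picked 1 of the 10, BACH1 both times, where 6.92% and 7.83% of all tested genes did so. edgeR called 0 of the 10 and 0 of 19241 genes after adjustment. The log2 fold changes of the 10 had a median of -0.06 and a median size of 0.14, and the median size over 12924 expressed genes, with 100 or more normalized counts on average, was 0.22. Both cadmium libraries lay above both controls for BACH1 and MAFG, 2 of the 10, against 20.3% of tested genes. They lay below both controls for HSF2 alone, 1 of the 10, against 19.9%. For the remaining 7 the groups overlapped, so 3 of 10 were separate against 40.3% of tested genes.

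**Figure D1:**
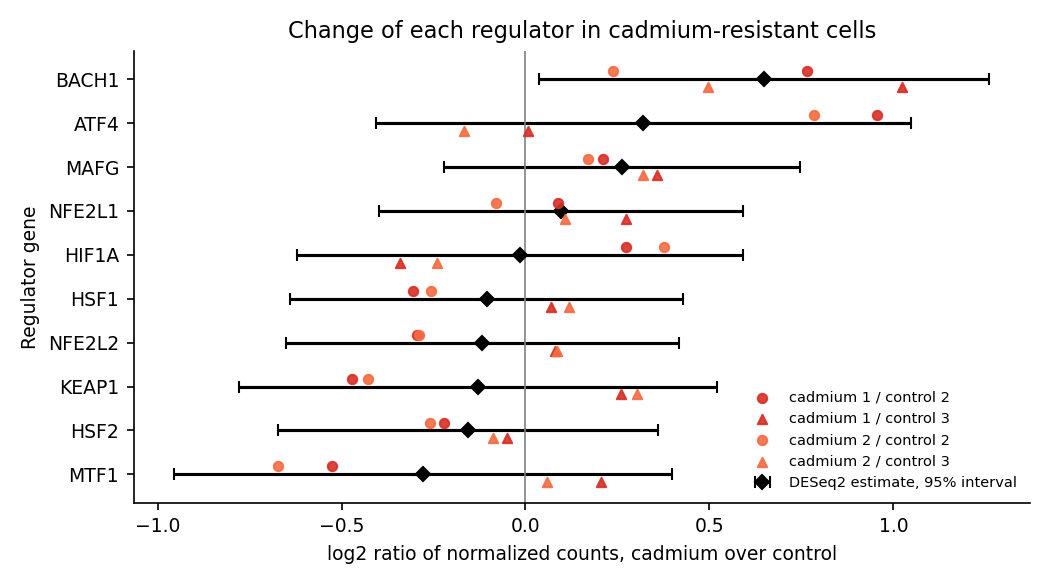
The log2 ratio of normalized counts, cadmium over control, is plotted on the x axis for each regulator on the y axis. Diamonds are DESeq2 estimates with 95% intervals, and coloured points are the 4 cadmium-to-control library ratios. Only the interval of BACH1 lies above 0, and for MTF1, NFE2L2, KEAP1, HSF1 and HIF1A the pairings with control 2 and those with control 3 fall on opposite sides of 0.

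The libraries held 51934729 to 61916007 reads assigned to genes. The lowest count of any of the 10 genes was 1105 reads, for MTF1 in control 3. Over the 12924 expressed genes the controls had a median absolute log2 difference of 0.39 and the cadmium libraries one of 0.11. The line's own markers VIM, CD44, AXL and KRT18 were high, with a scaled count (CPM, reads of each library set to the same total) of at least 378 in each library. ESR1 and PGR, the receptors this line lacks, had at most 0.53 CPM. EPCAM, an epithelial marker listed as low or absent, had 41.1 CPM in control 2 and 12.0 to 14.1 in the other libraries. Of the markers of other cells, ALB had at most 0.124 CPM, PTPRC 2.60 and COL1A1 16.9. PECAM1 had 2.73 CPM in control 2 and 11.5 to 15.3 in the other libraries, and CDH1 had 1.83 in control 2 and 11.1 in control 3, so the controls differed in these markers, EPCAM in the opposite direction to CDH1. The part of these differences in the results was not tested. A level here is a share of all assigned reads, so a lower share of expressing cells and less transcript per cell cannot be told apart.

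Levels per length, in TPM (a share of transcripts corrected for gene length, computed from the deposited counts and gene lengths), placed ATF4 highest and MTF1 lowest, 48.7-fold apart in their means over the 4 libraries. ATF4 had 377 and 786 TPM in controls 2 and 3, and 793 and 677 in cadmium libraries 1 and 2. HIF1A followed with 316, 523, 415 and 428 TPM in the same order, and the ranges of these 2 genes overlapped although ATF4 was the higher in each library. NFE2L1 came next at 229 to 278 TPM, then KEAP1 at 122 to 187 and HSF1 at 90.2 to 108, each with its lowest library above the highest library of the gene that followed. NFE2L2, at 68.8 to 82.7 TPM, and MAFG, at 61.1 to 78.7, could not be ordered, since each was the higher in 2 of the 4 libraries. Reads on the 21.9% of NFE2L2 exon bases shared with other gene entries were dropped, while its full length was used. Its TPM may therefore be too low, and its place below HSF1 and beside MAFG is uncertain. HSF2 lay at 35.4 to 40.5 TPM and BACH1 at 17.8 to 36.4, with HSF2 higher in each library. MTF1 itself had 17.7, 11.5, 13.3 and 11.6 TPM. By this measure 33.6% of expressed genes had a lower mean level than MTF1, and 98.6% had a lower one than ATF4.

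**Figure D2:**
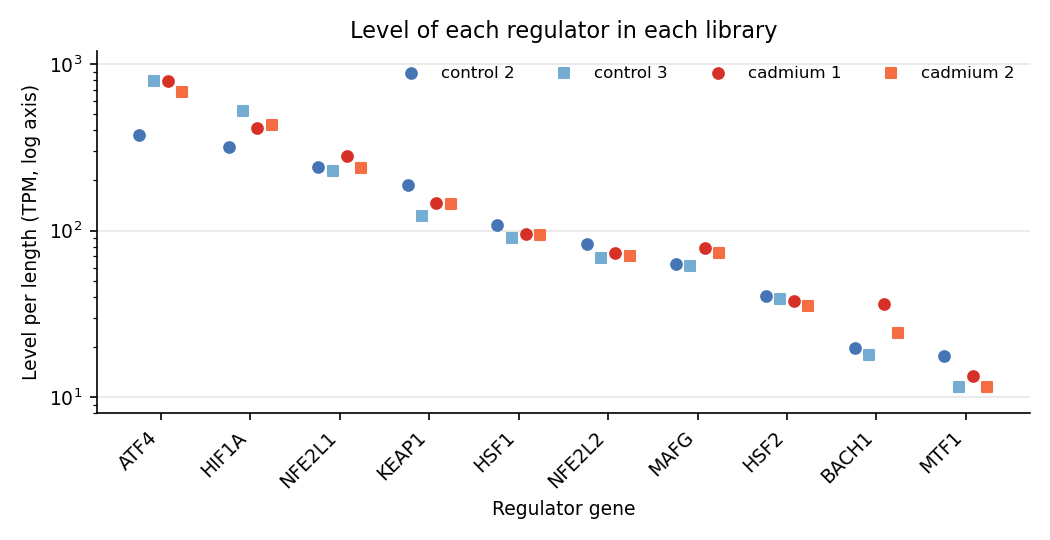
Level per length in TPM on a log axis for each regulator, ordered by mean level, with 1 point for each of the 4 libraries. The order runs from ATF4 (377 to 793 TPM) to MTF1 (11.5 to 17.7 TPM), and the 2 cadmium points lie close together for every gene except BACH1, at 36.4 and 24.3 TPM.

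Sequence upstream of the gene starts is shown for 3 of the regulators and for 1 known target of each of 3 regulators, so that the letters each factor is known to read can be seen beside the values. The windows are the 250 bases before an annotated start, 5′ to 3′ on the strand of the gene, from RefSeq on GRCh38.p14, an hg38 assembly. Capitals mark a metal response element core (MRE, TGCACNC or TGCGCNC) in the first 4, an amino acid response element (CARE, TGATGNAA) in ASNS and a heat shock element core (HSE, GAANNTTC) in HSPA1A, on either strand. The windows are chr1:37859593-37859842 (minus strand) for MTF1, chr16:56608334-56608583 (plus) for MT2A, chr21:29298672-29298921 (plus) for BACH1, chr17:81927736-81927985 (minus) for MAFG, chr7:97872409-97872658 (minus) for ASNS and chr6:31815293-31815542 (plus) for HSPA1A.
MTF1: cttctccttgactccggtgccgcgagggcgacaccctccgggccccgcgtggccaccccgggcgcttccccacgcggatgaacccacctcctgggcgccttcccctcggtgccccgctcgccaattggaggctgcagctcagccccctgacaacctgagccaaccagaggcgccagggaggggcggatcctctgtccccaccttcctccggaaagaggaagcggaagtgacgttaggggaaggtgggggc
MT2A: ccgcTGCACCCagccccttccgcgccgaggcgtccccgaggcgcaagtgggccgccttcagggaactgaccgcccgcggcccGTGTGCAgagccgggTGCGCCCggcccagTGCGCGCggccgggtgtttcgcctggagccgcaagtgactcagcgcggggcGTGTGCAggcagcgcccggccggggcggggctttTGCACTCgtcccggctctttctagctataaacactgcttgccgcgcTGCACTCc
BACH1: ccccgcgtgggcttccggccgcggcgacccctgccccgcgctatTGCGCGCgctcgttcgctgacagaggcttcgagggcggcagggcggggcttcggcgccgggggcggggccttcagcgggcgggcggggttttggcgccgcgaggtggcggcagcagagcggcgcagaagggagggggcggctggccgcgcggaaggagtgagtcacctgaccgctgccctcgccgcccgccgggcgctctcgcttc
MAFG: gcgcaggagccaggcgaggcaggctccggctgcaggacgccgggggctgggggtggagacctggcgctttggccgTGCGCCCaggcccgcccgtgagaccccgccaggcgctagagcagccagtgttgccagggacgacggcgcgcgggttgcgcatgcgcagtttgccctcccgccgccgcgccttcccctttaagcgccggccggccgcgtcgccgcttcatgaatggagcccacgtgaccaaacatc
ASNS: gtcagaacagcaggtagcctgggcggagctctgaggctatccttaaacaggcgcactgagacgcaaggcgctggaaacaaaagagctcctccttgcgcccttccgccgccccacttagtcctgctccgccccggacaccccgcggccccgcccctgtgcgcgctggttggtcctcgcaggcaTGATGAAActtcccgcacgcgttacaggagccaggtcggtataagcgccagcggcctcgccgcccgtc
HSPA1A: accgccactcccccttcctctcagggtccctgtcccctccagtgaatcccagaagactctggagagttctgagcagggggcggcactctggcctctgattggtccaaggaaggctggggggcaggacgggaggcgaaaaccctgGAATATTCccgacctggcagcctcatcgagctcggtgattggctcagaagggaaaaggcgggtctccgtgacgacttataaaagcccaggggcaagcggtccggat

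MT2A, a metallothionein gene and the textbook target of MTF-1, had 7 MRE matches in its window, whereas the window of MTF1 had 0. Of all 35116 windows of this length, 24.8% held at least 1 match. Windows were given for 9 of the 10 regulators, 17 in all because several have more than 1 start, and 6 of these 17 held an MRE match (KEAP1, BACH1, HSF2 and MAFG). Windows of 1 gene can overlap, and both HSF2 windows hold the same MRE position. Of the 3 BACH1 windows, only the one printed held a match. BACH1 and MAFG, printed here, had both cadmium libraries above both controls. The windows of KEAP1 and HSF2, which did not, are not printed. Whether matches go with the change in level was not tested. The antioxidant response element core (ARE, TGACNNNGC) was found in 2 of the 17 windows, of KEAP1 and HIF1A, and in 10.9% of all windows. The hypoxia response element core (HRE, ACGTG) was found in 5 of the 17, of HSF2, ATF4 and MAFG, and in 18.5% of all windows, the 2 ATF4 windows holding the same position. HSE and CARE matches were found in 0 of the 17 and in 5.78% and 3.14% of all windows. In ASNS the CARE match TGATGAAA overlaps an HSE match GAAACTTC by 4 letters, and in HSF2 the MRE matches on the 2 strands overlap each other. HSF1 was not among the windows.

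MTF1 (ENSG00000188786, chromosome 1, 37809574 to 37859592, hg38, minus strand) had normalized counts of 1948 and 1175 in controls 2 and 3, and 1354 and 1223 in cadmium libraries 1 and 2. Both cadmium libraries lay between the controls, nearer to control 3. DESeq2 put the log2 change of MTF1 at -0.28 with a 95% interval from -0.95 to 0.40 and an adjusted p-value of 1.00, and the estimate was 0.13 without control 2. Without control 3 it was -0.61 and MTF1 was called lower, at an adjusted p of 0.00413. Such calls were common in that fit, in which 13.5% of tested genes were called higher and 17.7% lower. Without control 2 these shares were 7.44% and 7.53%, without cadmium 1 they were 0.0819% and 0.0341%, and without cadmium 2 they were 0.0281% and 0.0125%. The 40 expressed genes nearest to MTF1 (35599541 to 39969968) had a median log2 ratio of control 3 over control 2 of -0.78, and MTF1 had -0.73. MTF1 thus differed between the controls by about as much as the genes around it. The same neighbours had a median of -0.35 for mean cadmium over mean control, with quartiles of -0.52 and -0.23. Over the 4 libraries the 3 expressed genes with the pattern closest to MTF1, by the distance of centred log2 normalized counts, were C18orf25 (distance 0.0527), CCDC138 (0.0563) and WAC-AS1 (0.0576), with a median distance of 0.65 over 12923 genes. Each of these was highest in control 2, and 22 genes lay within 1.5 times the third distance, so the likeness was not limited to these.

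The list of MTF1 targets held 9 metallothionein genes, the zinc exporter gene SLC30A1 and PGF, which encodes placental growth factor. MT1H had 0 reads, MT1B at most 3 in a library, and MT1G 0 in the controls and 17 and 13 in the cadmium libraries. The other 8 of the 11 averaged 10 or more normalized counts and had a median log2 fold change of 2.06 against -0.03 over all 18871 such genes. DESeq2 called MT2A, MT1E, MT1F, MT1M and MT1X higher, 5 of the 11 (0.6% of all tested genes were called higher). Leaving out control 3 raised that count to 8 (13.5% of tested genes), and leaving out cadmium 1 or cadmium 2 lowered it to 2. MT2A had normalized counts of 37771 and 20700.2 in the controls and 112331 and 130956 in the cadmium libraries, so its groups were far apart. It rose by 2.06 on the log2 scale (standard error 0.36; adjusted p = 9.42e-06, DESeq2). MT1X had 801 and 474 in the controls and 4374 and 4933 in the cadmium libraries, which gave a log2 change of 2.87. MT1M was nearly silent in the controls, at 5.68 and 1.06 normalized counts, and had 165 and 223 in the cadmium libraries. Its fitted log2 fold change of 5.81 depends on those few control reads. The groups of SLC30A1 did not overlap either, at 2174 and 4616 in the controls and 6566 and 7372 in the cadmium libraries. The estimate was 1.04 on the log2 scale (standard error 0.40) at an adjusted p of 0.339 in DESeq2. MT2A and MTF1 were both higher in control 2 than in control 3, while SLC30A1 was lower in control 2. MT1A (218 and 238 against 148 and 287) and PGF (657 and 2195 against 1163 and 1410) overlapped between the groups, with log2 fold changes of -0.07 and -0.15 (adjusted p = 1.00 each, DESeq2). Metallothionein genes are close paralogs, and the division of reads among them is uncertain.

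**Figure D3:**
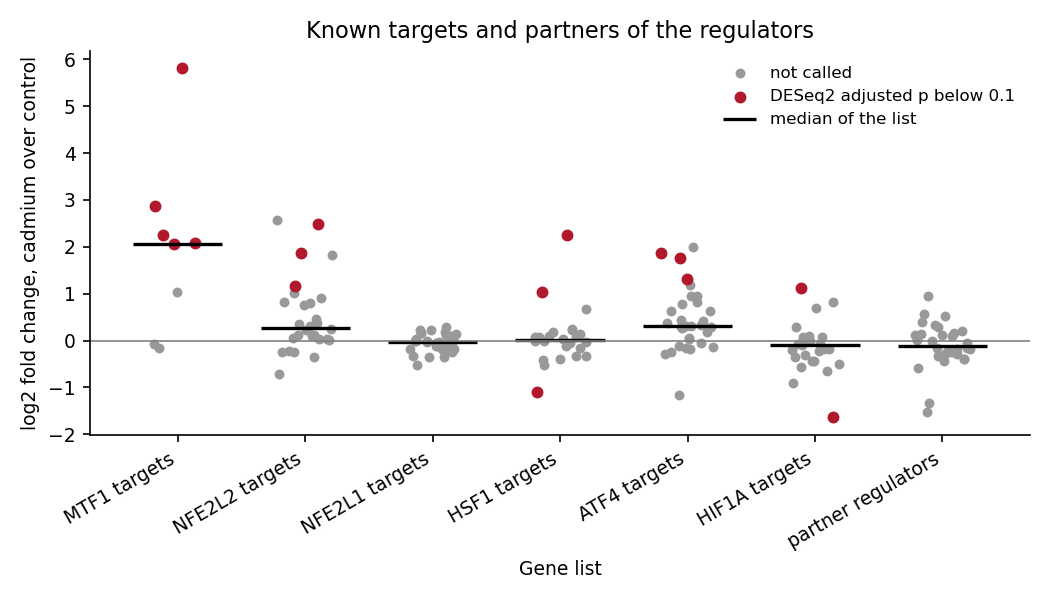
DESeq2 log2 fold changes (y axis) of the genes in each list (x axis) averaging 10 or more normalized counts, with called genes in red and the list median as a bar. The MTF1 targets have a median of 2.06, the NFE2L2 and ATF4 targets 0.27 and 0.32, and the other 4 lists lie between -0.10 and 0.01.

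Among the genes of the NRF2 system, BACH1 (ENSG00000156273, chromosome 21, 29194071 to 29630751, plus strand) had the largest estimate. Its normalized counts were 2085 and 1746 in controls 2 and 3, and 3546 and 2460.4 in cadmium libraries 1 and 2. Both cadmium libraries were above both controls, and they differed from each other by 1.44-fold, more than for 96.8% of expressed genes. Group means were 1915 ± 239 without and 3003 ± 768 with cadmium (SD, n = 2 each). For BACH1 DESeq2 gave a log2 change of 0.65 with a 95% interval from 0.04 to 1.26, an unadjusted p-value of 0.0374 and an adjusted p-value of 0.645, so BACH1 did not pass. The estimate was 0.36 without cadmium 1 and 0.89 without cadmium 2. The BACH1 estimate was 0.78 without control 2 and 0.52 without control 3. Around it, the 40 nearest expressed genes (25361821 to 36146562) had, between group means, a median log2 ratio of -0.25, and 97.5% of them were below BACH1.

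MAFG (ENSG00000197063, chromosome 17, 81918270 to 81927735, minus strand), a small MAF partner of both NRF2 and BACH1, was the other gene with both cadmium libraries on the high side. Its normalized counts were 4531 and 4092 in the controls and 5246 and 5101 in the cadmium libraries. Each pair was tight, with highest-to-lowest ratios of 1.11 in control and 1.03 in cadmium. MAFG had a log2 change of 0.26 with a 95% interval from -0.22 to 0.75 at an adjusted p of 1.00 in DESeq2, and MAFG was called only without control 2, at 0.34 and an adjusted p-value of 0.0829. Between group means its 40 nearest expressed genes had a median log2 ratio of -0.11. Of its paralogs, MAFK had counts of 2627 and 2855 in control and 2179 and 2180.0 in cadmium, a log2 fold change of -0.33 (adjusted p = 0.962, DESeq2). MAFF had 2648 and 1829.9 against 2521 and 2382, with a log2 fold change of 0.13 (adjusted p = 1.00, DESeq2). MAFG shares 329 of its 5241 exon bases with SIRT7 and an antisense gene, and reads on those bases were dropped.

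NFE2L2 (ENSG00000116044, chromosome 2, 177227595 to 177392697, minus strand) had normalized counts of 6472 and 4991 in controls 2 and 3, and 5272 and 5294 in cadmium libraries 1 and 2. The cadmium libraries were nearly equal and lay between the controls. For NFE2L2 the estimate was -0.12 on the log2 scale, with a 95% interval from -0.65 to 0.42 (adjusted p = 1.00, DESeq2), 0.08 without control 2 and -0.30 without control 3, where NFE2L2 was called lower with an adjusted p-value of 0.0677. Of its exon bases, 21.9% also belong to other gene entries, ENSG00000213963 on the same strand with 107 to 175 reads and ENSG00000222043 on the opposite strand with 1 to 10, so its count leaves out reads on that part. KEAP1 (ENSG00000079999, chromosome 19, 10486125 to 10503558, minus strand), the adaptor that holds NRF2, had 9238 and 5559 in the controls and 6658 and 6863 in the cadmium libraries. Its controls spanned both cadmium values as well. For KEAP1 the log2 change was -0.13 with a 95% interval from -0.78 to 0.52 (adjusted p = 1.00, DESeq2), 0.28 without control 2 and -0.46 without control 3, where KEAP1 was called lower at an adjusted p-value of 0.00165. Unlike MTF1, KEAP1 differed between the controls by more than its surroundings, at -0.73 on the log2 scale (control 3 over control 2) against a median of -0.14, with 10.0% of the 40 neighbours below it.

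NFE2L1 (ENSG00000082641, chromosome 17, 48048329 to 48061545, plus strand) encodes NRF1, a membrane-bound relative of NRF2 that restores proteasome genes when proteasomes are overloaded. Its normalized counts were 19620.0 and 17235 in the controls and 20842 and 18549.6 in the cadmium libraries, and the groups overlapped. NFE2L1 had a log2 change of 0.10 with a 95% interval from -0.40 to 0.59 (adjusted p = 1.00, DESeq2), and -0.01 without control 3. Of the 31 proteasome subunit genes listed as its targets, DESeq2 called 0 (1.13% of all tested genes). Their median log2 fold change was -0.03, equal at this precision to that of all genes. PSMD4 had 8544 and 8295 in control and 8227 and 8525 in cadmium. PSMB5 had 9434 and 7278 against 6997 and 7729.7. Neither gene differed by more than its replicate spread, with DESeq2 adjusted p-values of 1.00. Without control 3, 14 of the 31 genes were called lower (17.7% of all tested genes), and without control 2, 4 were called higher (7.44%).

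The ratio of per-length levels within a library compares opposing or paralogous factors without a scaling step. Ratios with NFE2L2 may be too low, since reads on 21.9% of its exon bases were dropped and its full length was used. NFE2L2 over KEAP1 was 0.441 and 0.566 in the controls and 0.499 and 0.486 in the cadmium libraries, so the groups overlapped. NFE2L2 over BACH1 was 4.20 and 3.86 in the controls and 2.01 and 2.91 in the cadmium libraries. Its groups did not overlap, with means of 4.03 ± 0.24 and 2.46 ± 0.64 (SD, n = 2 each). NFE2L2 over NFE2L1 was 0.342 and 0.3004 against 0.262 and 0.296, with both cadmium values below both controls. HSF1 over HSF2 was 2.67 and 2.32 against 2.52 and 2.68. Taken singly, 40.3% of tested genes had groups that did not overlap, and that share was not counted over ratios. With 2 libraries against 2, an exact two-sided permutation test cannot give a p-value below 0.333, so no test is given for the 4 ratios.

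Of the 28 genes listed as NRF2 targets, several of which BACH1 also represses, DESeq2 called HMOX1 (heme oxygenase), SLC7A11 (cystine import) and AKR1C3 (an aldo-keto reductase) higher, 3 of the 28 (0.6% of tested genes), and 0 lower. HMOX1 had normalized counts of 1469 and 786 in the controls and 6436 and 6141 in the cadmium libraries, which gave a log2 change of 2.48. SLC7A11, which is also in the ATF4 list, had 1860 and 2996 against 8075 and 9674, a log2 fold change of 1.87. AKR1C3 had 789 and 892 against 1536 and 2210, a log2 fold change of 1.16. For each of the 3 the cadmium libraries were well above both controls. The count was 11 without control 2 (7.44% of tested genes) and 11 without control 3 (13.5%), and 1 without either cadmium library. Over the list 23 genes had a positive and 5 a negative log2 fold change, with a median of 0.27, and both cadmium libraries were above both controls for 11 of the 28, against 20.3% of tested genes. NQO1, a quinone reductase, had normalized counts of 6778 and 6912 in control and 9253 and 15105 in cadmium, with a log2 fold change of 0.83 (adjusted p = 0.365, DESeq2). GCLM, the modifier subunit for glutathione synthesis, overlapped between groups at 5047 and 3656 against 4783 and 5425. Its log2 fold change was 0.23 (adjusted p = 1.00, DESeq2). The median log2 ratio over the list was 0.25 for cadmium 2 over cadmium 1 and -0.11 for control 3 over control 2.

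Of the heat shock factors, HSF2 (ENSG00000025156, chromosome 6, 122399551 to 122433119, plus strand), which forms trimers with HSF1, was the only one of the 10 with both cadmium libraries below both controls. Its normalized counts were 1508 and 1339.7 in control and 1294 and 1261 in cadmium, and the group means differed by less than the controls did. HSF2 had a log2 change of -0.16 with a 95% interval from -0.67 to 0.36 (adjusted p = 1.00, DESeq2), and leaving out single libraries gave -0.25 to -0.07. HSF1 (ENSG00000185122, chromosome 8, 144291591 to 144314720, plus strand), the main activator of chaperone genes, had 7931 and 6116 in control and 6415 and 6638 in cadmium. Its cadmium libraries lay between the controls. For HSF1 the estimate on the log2 scale was -0.11 with a 95% interval from -0.64 to 0.43 (adjusted p = 1.00, DESeq2), 0.09 without control 2 and -0.29 without control 3, where HSF1 was called lower at an adjusted p-value of 0.0738. HSF1 shares 137 exon bases with DGAT1 on the opposite strand, which had 1595 to 2171 reads.

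Of 25 heat shock genes listed as HSF1 targets, DESeq2 called HSPA6 and HSPA1A higher and HSPB1 lower. Their log2 fold changes were 2.25, 1.04 and -1.09. Of all tested genes, 0.6% were called higher and 0.534% lower. Without cadmium 2 none of the 3 was called, and without cadmium 1 a single gene was, on the high side. The 2 raised genes encode HSP70 proteins. HSPA1A has a near-identical neighbour in the same list, HSPA1B, and the assignment of reads to either is uncertain. HSPA1B was not called, with a log2 fold change of 0.67 (adjusted p = 0.353, DESeq2) and both cadmium libraries above both controls. HSPB1 encodes a small heat shock protein. HSPA6 had normalized counts of 80.4 and 75.5 in the controls and 246 and 496 in the cadmium libraries. HSPA1A had 2253 and 1812 against 3668 and 4669, and HSPB1 had 23202 and 15461 against 8744 and 9358. The groups of all 3 were apart. Over the list 12 genes were positive and 12 negative, with a median of 0.01. DNAJB1, which encodes an HSP40 co-chaperone, had 14662 and 13073 in control and 12084 and 12803 in cadmium. Both cadmium values were lower, with a log2 fold change of -0.16 (adjusted p = 1.00, DESeq2).

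ATF4 (ENSG00000128272, chromosome 22, 39519695 to 39522683, plus strand), the effector of the integrated stress response, had the largest gap between the controls of the 10 genes. Its normalized counts were 13593 and 26252 in controls 2 and 3, and 26363 and 23389 in cadmium libraries 1 and 2. Control 3 was as high as the cadmium libraries, and control 2 stood alone at a 1.93-fold lower level than control 3. Group means were 19922 ± 8951 without and 24876 ± 2103 with cadmium (SD, n = 2 each). ATF4 had a log2 change of 0.32 with a 95% interval from -0.41 to 1.05 (adjusted p = 1.00, DESeq2). It was -0.08 without control 2, and 0.86 without control 3 with an adjusted p-value of 2.47e-10. The neighbourhood did not show this gap, since the 40 nearest expressed genes had a median log2 ratio of control 3 over control 2 of -0.16 against 0.95 for ATF4, and 97.5% of them were below it. The pseudogene ATF4P3 received 0.220% to 0.347% as many reads as ATF4.

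The list of ATF4 targets held 32 genes. Over the 31 averaging 10 or more normalized counts, the median log2 ratio of control 3 over control 2 was 0.46 and 21 were higher in control 3, while over all 18871 such genes the median was -0.01 and 9271 were higher. Both groups of values come from the same 2 libraries. Against control 3 the list medians were 0.36 for cadmium 1 and 0.15 for cadmium 2, and against control 2 they were 0.80 and 0.45. DESeq2 called ASNS (asparagine synthetase), CTH (cystathionine gamma-lyase) and SLC7A11 higher, 3 of the 32 (0.6% of tested genes), and 0 lower. ASNS had normalized counts of 75.7 and 177 in the controls and 510 and 343 in the cadmium libraries, which gave a log2 change of 1.76. CTH had 383 and 478 against 1200 and 954, a log2 fold change of 1.32. The count was 7 without control 2 (7.44% of tested genes), 14 without control 3 (13.5%) and 0 without either cadmium library. DDIT3, which encodes CHOP, had normalized counts of 404 and 951 in controls 2 and 3, and 1480 and 1155 in cadmium libraries 1 and 2. Control 2 was the lowest here too. Its log2 fold change was 0.96 (adjusted p = 0.600, DESeq2). TRIB3, a pseudokinase gene induced by ATF4, had 2915 and 3360.0 in control and 6735 and 4427 in cadmium, with both cadmium values higher and a log2 fold change of 0.83 (adjusted p = 0.331, DESeq2).

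HIF1A (ENSG00000100644, chromosome 14, 61695513 to 61748259, plus strand), the oxygen-labile subunit of HIF-1, had the smallest estimate of the 10. Its normalized counts were 22493 and 34449.6 in controls 2 and 3, and 27178 and 29175 in cadmium libraries 1 and 2. The cadmium libraries sat in the middle of a 1.53-fold gap between the controls. HIF1A had a log2 change of -0.01 with a 95% interval from -0.62 to 0.59 (adjusted p = 1.00, DESeq2). It was -0.29 without control 2 and 0.31 without control 3, and it was called in each case, with adjusted p-values of 0.0741 and 0.0334. The call thus changed direction with the control that was kept. The antisense gene HIF1A-AS1 had 2 to 15 reads.

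The 27 genes listed as HIF-1 targets had 9 positive and 18 negative log2 fold changes and a median of -0.09. Over all 18871 genes averaging 10 or more normalized counts, 8862 were positive and 10009 negative. Against control 2 the list medians were -0.39 for cadmium 1 and -0.41 for cadmium 2. Against control 3 they were 0.11 and 0.20, so the direction changed with the control. DESeq2 called ADM (adrenomedullin) higher and CA12 (a carbonic anhydrase) lower, 1 of the 27 each way, against 0.6% and 0.534% of tested genes. ADM had normalized counts of 1689 and 1104 in control and 3256 and 2829.6 in cadmium, with a log2 fold change of 1.12 at an adjusted p of 0.0591 in DESeq2. CA12 had 4566 and 2413 against 1271 and 974, with a log2 fold change of -1.64 at an adjusted p of 0.00526 in DESeq2. Neither was called without cadmium 1 or without cadmium 2, and without control 3 the list had 3 genes called higher and 14 lower (13.5% and 17.7% of tested genes). VEGFA, the main angiogenic growth factor gene, had 10699.9 and 13288 in control and 23024 and 19543 in cadmium, with both cadmium values higher, and a log2 fold change of 0.83 (adjusted p = 0.155, DESeq2). CA9, a classical hypoxia marker, had at most 25.7 normalized counts in a library. PDK1, which encodes a kinase that inhibits pyruvate dehydrogenase, had 1683 in control 2 and 752 to 789 in the other libraries, with a log2 fold change of -0.64 (adjusted p = 0.905, DESeq2). Between the controls the list and HIF1A had opposite signs, with a median log2 ratio of control 3 over control 2 of -0.60 where HIF1A had 0.62.

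The 31 partner regulators include KEAP1 ligase subunits, kinases of the integrated stress response, and HIF partners and hydroxylases. DESeq2 called 0 of them, where it called 1.13% of all tested genes, and their median log2 fold change was -0.10. Of the 30 averaging 10 or more normalized counts, 7 had both cadmium libraries above both controls and 11 below. Of all tested genes, 20.3% and 19.9% did so. By edgeR no gene of any list here passed, the smallest adjusted p being 0.494. SQSTM1, which encodes the p62 protein that draws KEAP1 into autophagy, had normalized counts of 21979 and 15897 in control and 27006 and 27746 in cadmium. Its groups did not overlap, and its log2 fold change was 0.53 (adjusted p = 0.755, DESeq2). SQSTM1 and ARNT2 were chosen after their values were seen. ARNT2, a partner of HIF subunits, had 6295 in control 2 and 1554 to 1715 in the other libraries, so its log2 fold change of -1.33 (adjusted p = 0.391, DESeq2) rested on 1 control. EPAS1, which encodes HIF-2α, had 5459 and 6301 in control against 4951 and 4955, and ARNT had 2589 and 2893 against 2386 and 2554. Both were lower in both cadmium libraries, with log2 fold changes of -0.25 and -0.15 at an adjusted p of 1.00 in DESeq2.

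The controls differed more than the cadmium libraries. The absolute log2 difference between libraries of a group had a median over the 10 genes of 0.37 in the controls and 0.08 in the cadmium pair. Over the 12924 expressed genes these medians were 0.39 and 0.11, so the gap was not particular to the 10. All of the 10 genes but BACH1, 9 of 10, differed more between the controls, and this share was not counted over all genes. The 95% intervals of 8 of the 10 lay within a 2-fold change either way, and those of BACH1 and ATF4 did not. Without control 2, DESeq2 called BACH1 and MAFG higher and HIF1A lower, where 7.44% and 7.53% of tested genes were called. Without control 3 it called ATF4 and HIF1A higher and MTF1, NFE2L2, KEAP1 and HSF1 lower, where 13.5% and 17.7% were called. No gene was called in both cases except HIF1A, in opposite directions. Without either cadmium library it called 0 of the 10. In the fits without a control the lone control is assumed to vary as the cadmium pair did.

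**Figure D4:**
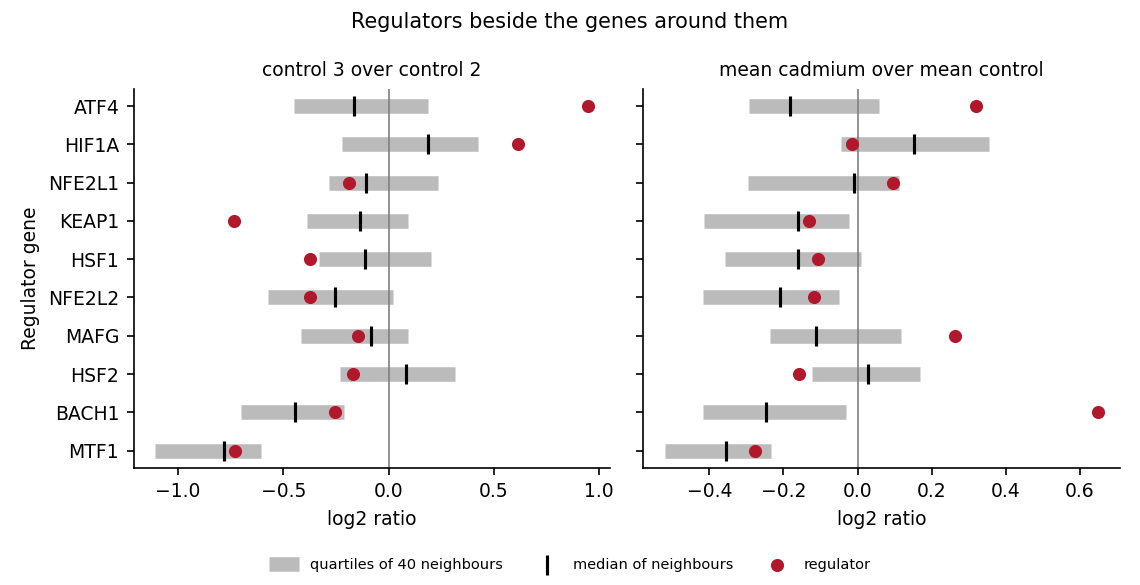
For each regulator the red point is its own log2 ratio, control 3 over control 2 on the left and mean cadmium over mean control on the right, beside the median (tick) and the span between the quartiles (bar) of the 40 nearest expressed genes. Between the controls ATF4 (0.95), HIF1A (0.62), KEAP1 (-0.73) and HSF1 (-0.37) lie outside the bar and MTF1 (-0.73) inside it, and between the groups BACH1 (0.65), ATF4 (0.32) and MAFG (0.26) lie above it and HSF2 (-0.16) below it.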

How the data were processed

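The authors deposited unnormalized read counts for each gene in 2 control and 2 cadmium libraries. They had removed adaptors (bbduk), aligned to hg38 (hisat2) and counted reads with featureCounts 2.0.1 over Ensembl exons. Default options applied, so strand was ignored, both mates were counted and reads overlapping several genes were dropped. Control columns numbered 2 and 3 were assigned by group because the labels number the controls 1 and 2. Total counts were 51934729 to 61916007. Intervals reflect the spread between libraries through a dispersion that DESeq2 shares between both groups and moderates over all genes.

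Genes with a read (33455 of 61541) were tested with DESeq2 1.42.0 in R 4.3.3, the tool of the study (Wald test, two-sided, Benjamini-Hochberg adjustment over all genes, threshold 0.1, independent filtering). Intervals are 95% normal intervals of the log2 fold change. Alternatives were edgeR 4.0.16, limma 3.58.1 (voom), other size factors and filters, a threshold of 0.05, leaving out each library, and, after seeing the data, halved counts and the older edgeR method. TPM and CPM were computed, TPM with the deposited gene length column. Neighbours were the 40 nearest genes averaging 100 or more normalized counts, with 1 added before the log2. Scripts were tested on simulated data.

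The members and gene lists were chosen with earlier results of these data known. Named genes are the members, called list genes, a set list of targets and partners, overlapping genes and pseudogenes, and the 3 genes most like MTF1. MT1A, MT1B, MT1G, MT1H, PGF, HSPA1B, SQSTM1 and ARNT2 were added after their values were seen. Plots used Python 3.11.15.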

Additional observations from a re-analysis of the deposited data

How the results depend on the processing

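No paired analysis was possible because the labels do not pair a control with a cadmium library. The numbers in the table's control columns (2 and 3) also differ from those in the labels (1 and 2). Hence no replicate block was fitted.

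Under edgeR, limma-voom and the older edgeR method (added after seeing the data), 0 genes of the MTF1, NFE2L2, HSF1, ATF4 and HIF1A target lists were called in either direction, and 0 genes of the whole table, where 1506, 1423 and 1422 had an unadjusted p below 0.05. The HIF1A list had 2 genes called higher when at least 10 counts in 2 libraries were required and 0 at an adjusted p below 0.05. Of the members' 90 fold changes under 9 other tests, scalings and filters, 88 kept their direction and their side of the threshold. The exceptions were HIF1A under limma-voom (0.021) and under upper-quartile factors (0.0426). The settings without independent filtering and at a threshold of 0.05 reuse the main fit, so their fold changes could not differ. Over the whole table DESeq2 called 119 genes higher and 106 lower, 152 and 88 under upper-quartile factors, 86 and 81 without independent filtering, 82 and 76 at 0.05, and 82 and 82 with halved counts (also added).

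Leaving out 1 library at a time, which leaves 1 in a group, moved the results most. The whole table then had 1150 genes called higher and 1164 lower of 15449 tested without control 2, 2677 and 3510 of 19836 without control 3, 12 and 5 of 14660 without cadmium 1, and 9 and 4 of 32000 without cadmium 2. Members called ranged from 0 to 2 higher and 0 to 4 lower. Called higher were 0 to 6 partner regulators, 2 to 8 MTF1 targets, 1 to 11 NFE2L2 targets, 0 to 4 NFE2L1 targets, 0 to 6 HSF1 targets, 0 to 14 ATF4 targets and 0 to 4 HIF1A targets. Called lower were 0 to 8 partner regulators, 0 to 1 MTF1 targets, 0 to 4 NFE2L2 targets, 0 to 14 NFE2L1 targets, 0 to 7 HSF1 targets, 0 to 2 ATF4 targets and 0 to 14 HIF1A targets. The log2 fold changes of the members ranged from -0.61 to 0.13 for MTF1, -0.30 to 0.0801 for NFE2L2, -0.00601 to 0.19 for NFE2L1, -0.46 to 0.28 for KEAP1, 0.36 to 0.89 for BACH1, -0.29 to 0.0918 for HSF1, -0.25 to -0.07 for HSF2, -0.0791 to 0.86 for ATF4, -0.29 to 0.31 for HIF1A (0.03 without cadmium 1) and 0.18 to 0.34 for MAFG. The cause of these moves was not tested.

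By scaled counts without length, HIF1A ranked 1, ATF4 2, BACH1 8, MTF1 9 and HSF2 10. The neighbours' median ratio of cadmium over control became -0.0912 for NFE2L1, -0.0364 for KEAP1 and -0.0192 for HSF2 with 80 neighbours, and -0.12 for ATF4 with 20.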
